A study of Mus musculus with 11 samples.

Results

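The comparison asked, gene by gene, whether the response to fibrosis differed between kidney and lung: the fibrotic minus healthy change in kidney, minus the same change in lung. It used all 11 of the study's 11 arrays and 12865 of the 19057 genes that had a probe with 1 gene symbol, namely those read above background by a probe on 2 or more arrays (detection p-value under 0.05). Measured changes were not used to choose the genes, but a gene above background in 1 group alone passed the filter through that group.

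The mice were adults of the BALB/C strain, each labelled female, and total RNA of whole kidney or whole lung was hybridised to Illumina bead arrays, on which each gene is read by short probes fixed to beads. The healthy kidneys (n = 3) and healthy lungs (n = 3) came from untreated mice, and their titles name the same 3 mice for both organs. The fibrotic kidneys (n = 2) followed unilateral ureter obstruction, which dams urine in 1 kidney, and the fibrotic lungs (n = 3) followed bleomycin, a DNA-damaging drug, injected into the trachea. The labels give no time after obstruction, no time or dose for bleomycin and no sham-operated or vehicle-treated group, so each response holds the whole procedure.

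Fibrosis is the replacement of working tissue by collagen-rich matrix, laid down mainly by activated fibroblasts. The obstructed kidney loses tubule cells to pressure and stretch and fills with inflammatory cells. Bleomycin injures the lung epithelium and endothelium and brings in macrophages and neutrophils before scarring.

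A level below is a background-corrected, quantile normalised log2 intensity, a change is fibrotic minus healthy on that scale with the SE of the fit, and the organ difference is the kidney change minus the lung change. A gene is called when limma's adjusted p for a contrast is under 0.05. A response is termed opposite when both organs' changes and their difference are called and the changes have opposite signs. It is termed present in 1 organ only when that organ's change and the difference are called, the other organ's is not, and the 95% interval of the other organ's change lies within ±1 log2 unit.

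The arrays had raw medians of 95.2 to 125.1 intensity units and detected 9591 to 11462 of the genes each. Within groups they correlated at r = 0.935 to 0.988. Some transcripts went against the labels or the organ. Eif2s3y, a Y-chromosome gene, stood at 9.06 to 9.75 in all 6 healthy organs and in fibrotic lungs 1 and 2, and at 4.40 to 4.44, background, in both fibrotic kidneys and fibrotic lung 3. Xist, the RNA that silences an X chromosome in females, was above background in both fibrotic kidneys (10.83 and 10.56) and in fibrotic lungs 1 and 3 (5.61 and 9.03) and in no healthy organ. In kidney these sex-linked transcripts cannot be told apart from fibrosis, and this limit holds for every kidney change below. Transcripts of cardiac and skeletal muscle were uneven in the healthy lungs, where that list's mean level ran from 5.74 to 11.09, against 7.24 to 8.13 in the fibrotic lungs. Liver transcripts were high in healthy lung 3, and that list's mean level ran from 5.71 to 12.90 over the healthy lungs.

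The organ difference was called for 5150 of 12865 genes (40%), and 6289 genes had an unadjusted p under 0.05. The kidney change was the higher one in 3071 genes (23.9%) and the lower one in 2079 (16.2%). The counts given for each list below stand beside these shares. Of the called differences, 3807 were at least 1 log2 unit. In the authors' processed intensities, where each array was scaled by 1 factor and the median lung change was 0.61, the kidney change was the higher one in 13.3% of the called genes, against 59.6% here. Of the genes called here, 89.2% kept the sign of their difference there, and 99.6% did so relative to that shift of the median.

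Opposite responses were found in 1077 genes (8.37% of those tested), or 20.9% of the called differences. Responses in kidney only were found in 1676 genes (13%) and in lung only in 1297 (10.1%), together 23.1% of the genes tested and 57.7% of the called differences. Over all genes the kidney and lung changes correlated weakly (Pearson r = 0.16, Spearman rho = 0.05 across genes, which are not independent replicates). The kidney change was called for 38.8% of all genes (23.2% up and 15.6% down) and the lung change for 37.8% (18.9% up and 18.9% down). Counts of rises and falls within an organ, given for each list below, stand beside these shares. In all, 2144 genes were called in both organs, of which 1067 changed in the same direction and 1077 in opposite directions. The median change over all genes was 0.10 in kidney and -0.03 in lung, and the median difference 0.13.

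**Figure D1:**
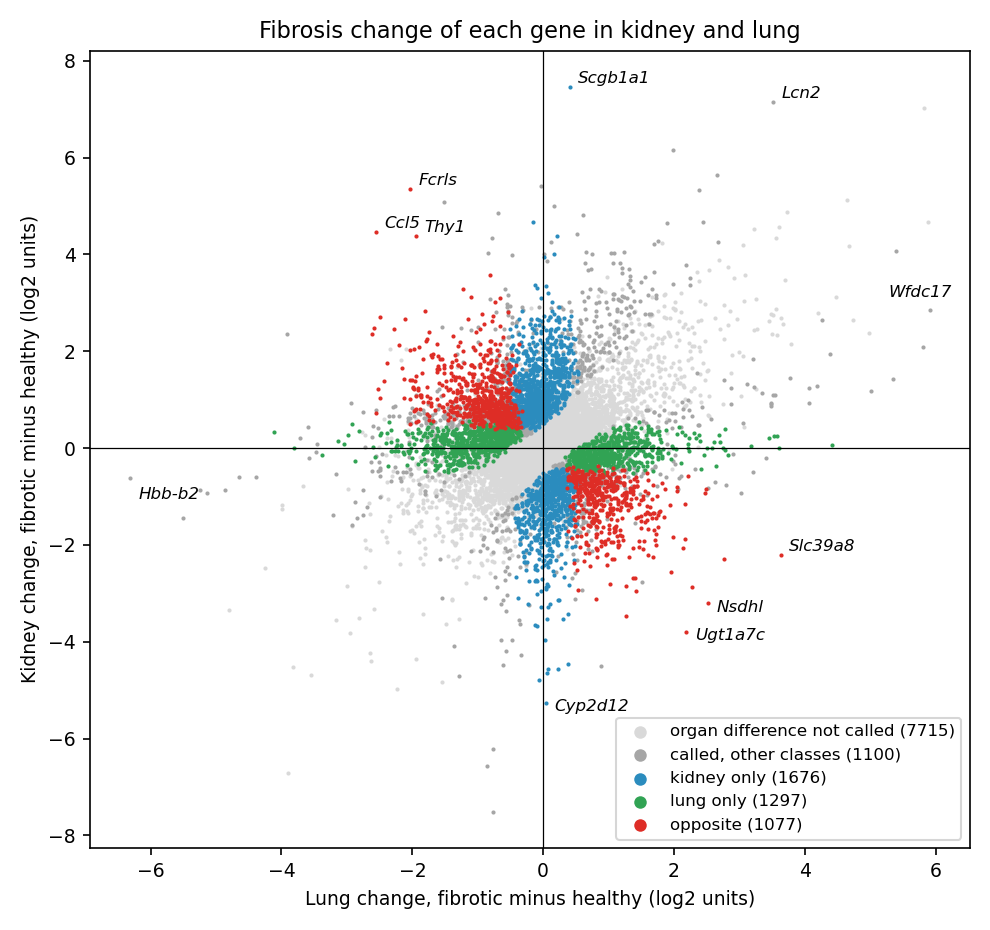
Log2 change in lung (horizontal axis) against log2 change in kidney (vertical axis) for the 12865 genes, each a point coloured by its class. The 628 genes that rose in kidney and fell in lung lie at the upper left. The 449 that fell in kidney and rose in lung lie at the lower right, while genes changed in 1 organ only lie along the axes.

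In 628 genes (4.88% of those tested) the kidney level rose and the lung level fell, and in 449 genes (3.49%) the kidney level fell and the lung level rose. Healthy and fibrotic arrays did not overlap in either organ for 618 and 443 of them, and for 1703 of the 7715 genes without a called difference. With 2 or 3 arrays per group, genes called in both organs mostly separate in this way, so these counts are a description. Both changes reached 1 log2 unit in 140 and 116. A rise in kidney only was found in 997 genes (7.75%), a fall in kidney only in 679 (5.28%), a rise in lung only in 582 (4.52%) and a fall in lung only in 715 (5.56%). The same direction in both organs with a called difference in size was found in 222 genes, and in 628 further genes 1 organ's change was called while the other organ's interval was too wide for either term. These classes depend on the scaling of the arrays, since it sets where 0 lies: with arrays brought to a common median, 405 genes rose in kidney and fell in lung.

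**Figure D2:**
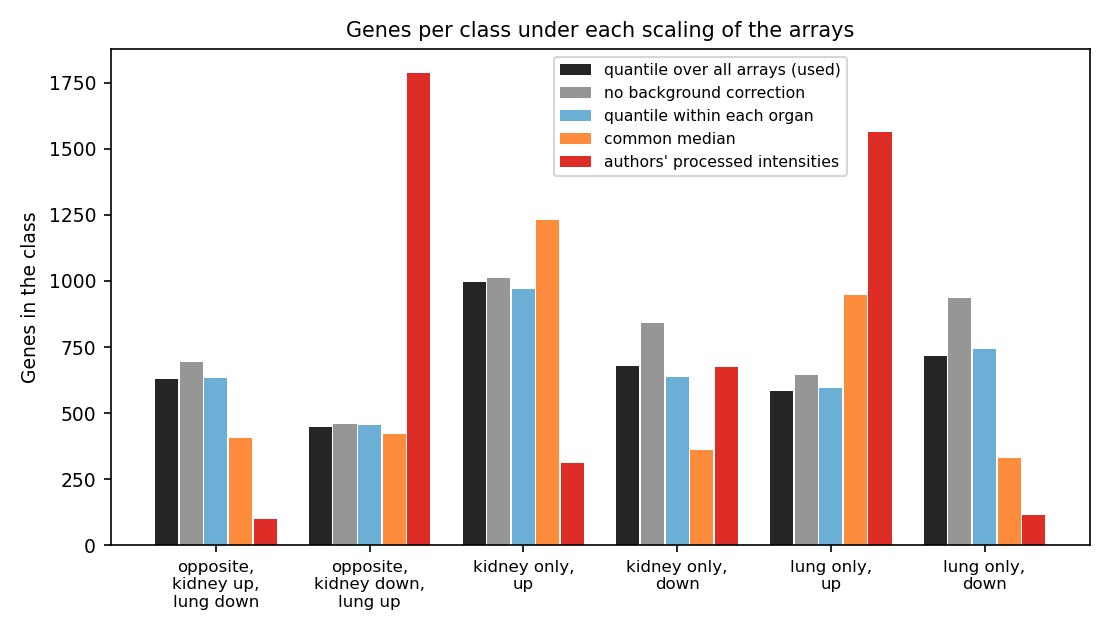
Number of genes (vertical axis) in each class of response (horizontal axis), with a bar for the values reported here and for each other way of scaling the arrays or correcting the background. The authors' processed intensities move genes from the class that rose in kidney and fell in lung (99) to the reverse class (1787).

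Of the 16 genes tested from the list of MHC class II and dendritic cells, 9 rose in the obstructed kidney and 0 fell, while 12 fell in the bleomycin lung and 1 rose. Over all genes, 23.2% rose and 15.6% fell in kidney, and 18.9% rose and 18.9% fell in lung. MHC class II molecules display peptides from engulfed proteins to helper T cells; they are made by dendritic cells, B cells, macrophages and, when stimulated, by epithelium. H2-Ab1 and H2-Eb1 encode beta chains of the molecule, Cd74 the invariant chain that guards its groove, and H2-DMb1 and H2-DMb2 beta chains of the chaperone that exchanges the guard for a peptide. Ciita is the coactivator that switches all of them on. Within the list of MHC class II and dendritic cells, the kidney change was above the lung change in 14 of 16 genes tested and below it in 0, and 7 were opposite, beside 23.9% and 4.88% of all genes. Median log2 changes of its genes were 1.93 in kidney and -1.72 in lung.

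The class II genes share a promoter control region in which the coactivator's partner proteins bind. It is shown for 3 of the list's 7 opposite members, which were picked for display from those with a RefSeq entry. Each is a 90-base stretch of mouse build GRCm38.p6 from the window 250 bases before to 50 after the gene's start, 5′ to 3′ on the gene's strand, with the letters GATGATGC and GATTGG in capitals, the second also where it stands reversed as CCAATC.
H2-Eb1, chr17:34305765-34305854, plus strand: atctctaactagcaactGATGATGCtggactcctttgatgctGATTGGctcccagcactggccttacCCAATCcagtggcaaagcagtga
H2-DMb1, chr17:34153074-34153163, plus strand: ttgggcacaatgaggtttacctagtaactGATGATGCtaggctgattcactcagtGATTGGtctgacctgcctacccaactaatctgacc
H2-DMb2, chr17:34145103-34145192, plus strand: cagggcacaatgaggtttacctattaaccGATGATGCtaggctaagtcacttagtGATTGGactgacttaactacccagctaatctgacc
The capitals begin 85, 88 and 117 bases before the start. GATTGG holds the CCAAT letters as read on the other strand. GATGATGC was picked after these sequences were read, so its presence in them is a description. Both strands were searched, and in the stretches shown the motifs do not overlap. GATGATGC occurred in 0.703% of 32851 mouse promoters of the same length and in 0.742% of 674 promoters of genes that rose in kidney and fell in lung. GATTGG occurred in 16.1% and 16.2%. Of the 628 genes, 493 had a promoter entry.

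H2-Ab1 read 8.85, 9.04 and 9.07 in healthy kidney, 12.02 and 10.87 in fibrotic kidney, 10.94, 11.18 and 11.29 in healthy lung and 8.87, 8.44 and 9.24 in fibrotic lung. H2-Eb1 read 9.40, 9.49 and 9.66 in healthy kidney, 12.59 and 11.41 in fibrotic kidney, 11.42, 11.20 and 11.56 in healthy lung and 8.69, 8.24 and 9.48 in fibrotic lung. In both genes every fibrotic kidney lay above every healthy kidney and every fibrotic lung below every healthy lung. The rule for naming them required this. The changes of H2-Ab1 were 2.46 ± 0.32 in kidney and -2.28 ± 0.29 in lung (difference 4.75 ± 0.43, adjusted p = 5.4e-05), and those of H2-Eb1 were 2.49 ± 0.38 and -2.59 ± 0.34 (difference 5.08 ± 0.51, adjusted p = 7.7e-05). Cd74 read 10.62, 10.71 and 10.85 in healthy kidney, 13.11 and 12.50 in fibrotic kidney, 12.64, 12.99 and 13.11 in healthy lung and 10.82, 10.66 and 11.56 in fibrotic lung. It thus rose by 2.08 ± 0.28 in kidney and changed by -1.90 ± 0.25 in lung (adjusted p of the difference 6.3e-05), at high levels in all 11 arrays. H2-DMb1 read 7.38, 7.16 and 7.59 in healthy kidney, 10.72 and 9.46 in fibrotic kidney, 10.15, 10.22 and 10.28 in healthy lung and 7.61, 7.03 and 8.51 in fibrotic lung, with changes of 2.71 ± 0.42 and -2.50 ± 0.38 (difference 5.21 ± 0.57, adjusted p = 0.00012). H2-DMb2 changed by 2.39 ± 0.33 and -1.75 ± 0.29; the 2 are near-identical neighbouring copies, so their probes may read each other's transcripts. In bulk tissue, fewer cells of a type and less RNA per cell cannot be told apart.

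**Figure D3:**
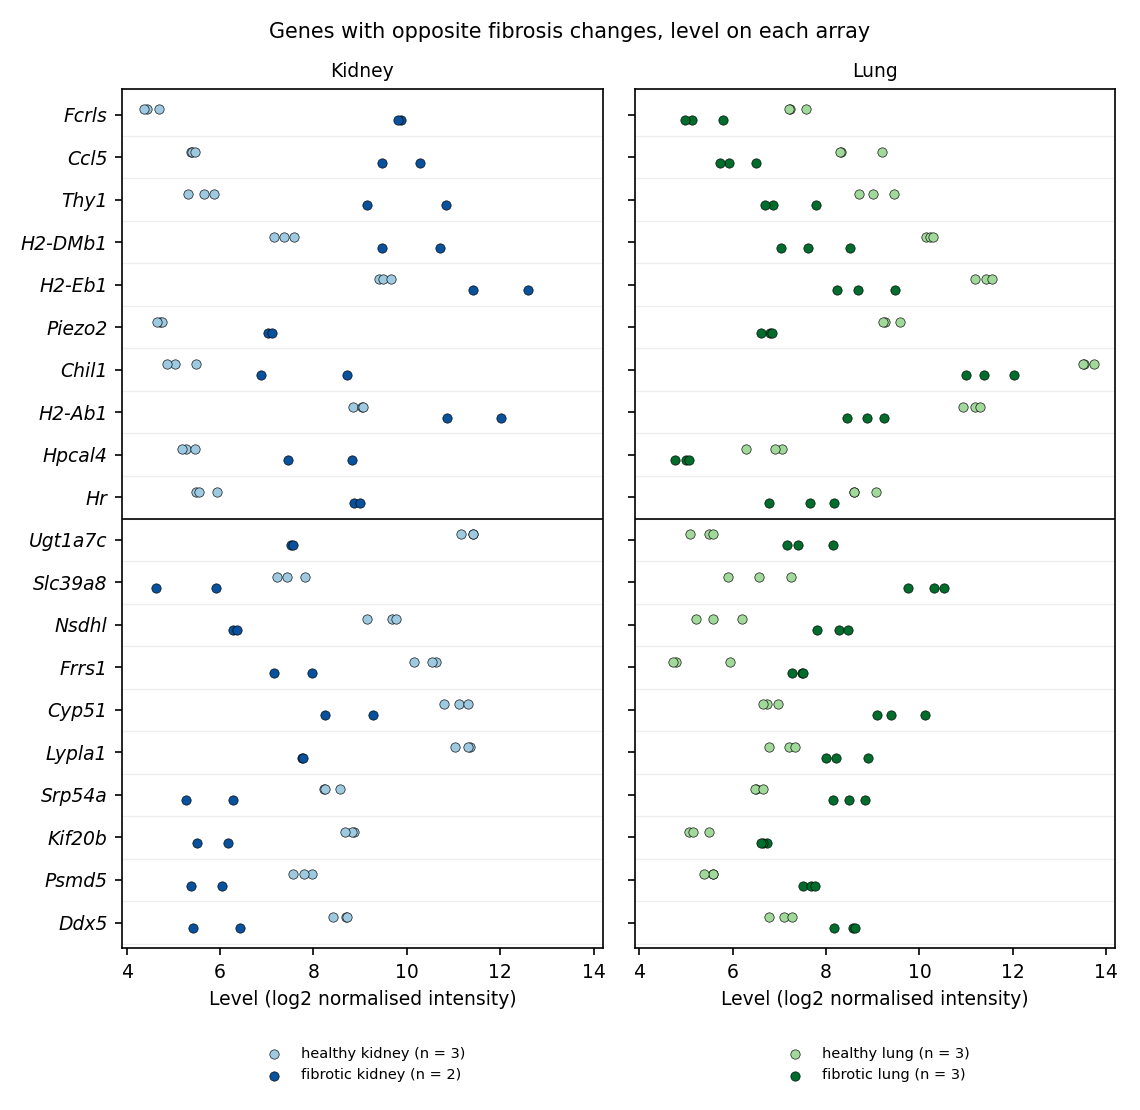
Log2 level (horizontal axis) on each array (points) of the 20 named genes with opposite responses (vertical axis), kidney at the left and lung at the right, light points healthy and dark points fibrotic. The genes were picked for changes of opposite direction and for healthy and fibrotic points that do not overlap in either organ, so both features follow from the choice.

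Markers of lymphocytes fell in lung in most cases and moved less evenly in kidney: of the 12 T and natural killer cell genes tested, 9 fell in lung and 5 rose in kidney. Across the list of T and natural killer cells, the kidney change was above the lung change in 9 of 12 genes and below in 0. Of the 12, 5 were opposite. The shares over all genes were 23.9%, 16.2% and, for a rise in kidney with a fall in lung, 4.88%. Opposite genes numbered 2 without fibrotic kidney replicate 1, 3 with weights per group and 1 on the authors' processed intensities. Its median log2 change was 0.44 in kidney and -1.84 in lung, and the kidney median turned to -0.11 on the authors' processed intensities. Ccl5, a chemokine that T and natural killer cells release, read 5.38, 5.41 and 5.46 in healthy kidney, 10.29 and 9.47 in fibrotic kidney, 8.33, 9.19 and 8.30 in healthy lung and 5.92, 5.72 and 6.51 in fibrotic lung. Its difference of 7.02 ± 0.45 (adjusted p = 1.2e-05) came from a rise of 4.46 ± 0.33 in kidney and a lung change of -2.56 ± 0.30. Klrd1, a natural killer receptor subunit, and Cd3d, a chain of the T cell receptor complex, were not above background in any healthy kidney; they were at least 1.86-fold and 1.65-fold higher in the fibrotic kidneys, while their lung changes were -1.97 ± 0.22 and -1.99 ± 0.28 (adjusted p of the difference 9.2e-05 and 0.00028). For Cd3d the kidney change was 0.85 without fibrotic kidney replicate 1 and no longer called. Of the 7 B and plasma cell genes, 6 fell in lung, while 1 rose and 2 fell in kidney, the falls being in Fcer2a, the IgE receptor of B cells (-1.02 ± 0.22), and Mzb1, a chaperone of antibody-secreting cells (-1.28 ± 0.40). Of these genes, 4 had the higher change in kidney and 0 the lower. On the kidney-higher side there were 2 on the authors' processed intensities. Fcmr, the Fc receptor for IgM, was the 1 opposite gene of the list (1.22 ± 0.18 in kidney, -2.53 ± 0.16 in lung, adjusted p = 1.3e-05).

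Endothelial cells line vessels, and the healthy lung is among the organs richest in them. In the list of endothelium, the kidney change was above the lung change in 19 of 34 genes and below in 2. These counts stand beside 23.9% and 16.2% of all genes. The 9 opposite genes became 6 to 10 when 1 array was left out and 4 on the authors' processed intensities. Kidney-higher genes numbered 11 on the authors' processed intensities. The list's median log2 change was 0.61 in kidney and -0.64 in lung. Eng, a co-receptor for TGF-beta on endothelium, read 8.92, 8.87 and 9.15 in healthy kidney, 10.08 and 9.80 in fibrotic kidney, 11.40, 11.33 and 11.54 in healthy lung and 10.03, 10.01 and 10.01 in fibrotic lung. Its changes were 0.96 ± 0.15 in kidney and -1.40 ± 0.13 in lung (adjusted p of the difference 4.1e-05), without overlap. Aplnr, the receptor for the vessel peptide apelin, changed by 2.03 ± 0.26 and -2.04 ± 0.23 (adjusted p 4.3e-05), and Thbd, which turns thrombin towards anticoagulation, by 2.16 ± 0.32 and -1.62 ± 0.29 (adjusted p 0.00015). The list's mean level was 7.55 to 7.76 in healthy and 8.21 to 8.40 in fibrotic kidneys, and 10.51 to 10.62 in healthy and 10.03 to 10.19 in fibrotic lungs. A part of endothelial cell number in these values was not tested.

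Immediate early genes respond to growth factors or stress without new protein synthesis, and heat shock genes guard protein folding. Among genes of the list of immediate early and heat shock, 14 of 26 genes had the higher change in kidney and 0 the lower. With the kidney change higher there were 6 on the authors' processed intensities. Median log2 changes of its genes were 0.92 in kidney and -0.36 in lung, and the lung median turned to 0.06 with arrays at a common median and 0.24 on the authors' processed intensities. The transcription factor Jun read 7.62, 7.19 and 7.19 in healthy kidney, 8.83 and 9.35 in fibrotic kidney, 10.13, 10.07 and 9.93 in healthy lung and 9.02, 8.65 and 8.83 in fibrotic lung, with changes of 1.75 ± 0.20 and -1.21 ± 0.18 (difference 2.96 ± 0.27, adjusted p = 6e-05). Klf2, a transcription factor induced by blood flow in endothelium, was also opposite (1.09 ± 0.25 in kidney, -1.53 ± 0.23 in lung, adjusted p = 0.00029). Klf6, a related injury-induced factor, rose in kidney only (2.53 ± 0.19 in kidney, -0.41 ± 0.17 in lung, adjusted p = 4.8e-05).

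Beyond the lists, the largest opposite differences with a rise in kidney were in Fcrls, Ccl5 and Thy1. Fcrls, a receptor of myeloid cells related to Fc receptors, read 4.69, 4.43 and 4.37 in healthy kidney, 9.88 and 9.82 in fibrotic kidney, 7.22, 7.57 and 7.21 in healthy lung and 5.14, 4.98 and 5.79 in fibrotic lung. Its changes of 5.35 ± 0.24 and -2.03 ± 0.21 gave the highest organ difference of the genes so named, 7.38 ± 0.32 (adjusted p = 1.4e-06). On each healthy kidney array it lay below Irf7, given further on, which was not above background there. Its kidney change thus compares the fibrotic kidneys with background. Over the 22 alternatives its organ difference ran from 3.95 to 7.57. Thy1, a surface protein of T cells and of fibroblasts, read 5.31, 5.66 and 5.88 in healthy kidney, 9.14 and 10.84 in fibrotic kidney, 9.01, 9.45 and 8.71 in healthy lung and 6.86, 6.69 and 7.79 in fibrotic lung, with changes of 4.38 ± 0.47 and -1.94 ± 0.42 (difference 6.32 ± 0.64, adjusted p = 8e-05). In both genes the fibrotic kidneys were all above the healthy ones and the fibrotic lungs all below, with no overlap. This was a condition of their choice. Piezo2, a stretch-gated ion channel, changed by 2.36 ± 0.15 in kidney and -2.61 ± 0.14 in lung, and Chil1, a secreted chitinase-like protein of macrophages and epithelium, by 2.67 ± 0.46 and -2.11 ± 0.42 (adjusted p 1.4e-06 and 3e-04). Hpcal4, a neuronal calcium sensor, had a difference of 4.64 ± 0.48 and Hr, a corepressor of nuclear receptors, of 4.51 ± 0.46. The lung fall of Hr (-1.22 ± 0.30) was -0.65 and not called in the authors' processed intensities, and the other 9 genes kept their class under all 22 alternatives.

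In the list of cholesterol synthesis and uptake, 8 of 20 genes rose in the bleomycin lung and 1 fell, while 7 fell in the obstructed kidney and 4 rose. Cells make cholesterol from acetyl-CoA through a chain of enzymes in the endoplasmic reticulum that are switched on together when sterol is scarce. Lung type 2 cells use the product in surfactant. The kidney change was below the lung change in 11 of these genes and above in 1, beside 16.2% and 23.9% of all genes; 4 fell in kidney and rose in lung, and 1, Sc5d, did the reverse. Without fibrotic kidney replicate 2 the kidney-lower count was 7 and the kidney-higher count 2, and on the authors' processed intensities 8 fell in kidney and rose in lung. Its median log2 change was -0.30 in kidney and 0.64 in lung. Sc5d, a desaturase of the sterol ring, changed by 0.74 ± 0.14 and -0.69 ± 0.12 (adjusted p 0.00027), and its difference was 0.47 (adjusted p = 0.09) in the authors' processed intensities. The other rises in kidney were in Scd1, a fatty acid desaturase, Srebf2, the transcription factor of the pathway, and Fdps, which joins isoprene units (1.90 ± 0.35, 0.95 ± 0.25 and 0.74 ± 0.20); their organ differences were not called.

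Promoters of the 4 members that fell in kidney and rose in lung are shown because promoters of sterol genes often pair a sterol element with CCAAT letters. Only the 6 letters CCAATC, or GATTGG in the other direction, were searched and are in capitals. CCAAT letters followed by another base stay in lower case, as where attgg stands in Nsdhl and Mvd. The stretches are from the same RefSeq window and build.
Nsdhl, chrX:72918481-72918570, plus strand: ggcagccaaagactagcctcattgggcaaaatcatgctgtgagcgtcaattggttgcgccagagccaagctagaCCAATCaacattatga
Cyp51, chr5:4104679-4104768, minus strand: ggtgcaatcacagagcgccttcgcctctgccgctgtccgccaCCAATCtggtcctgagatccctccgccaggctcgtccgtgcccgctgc
Mvd, chr8:122443402-122443491, minus strand: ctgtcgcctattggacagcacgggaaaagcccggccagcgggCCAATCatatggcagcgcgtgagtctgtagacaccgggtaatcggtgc
Lss, chr10:76531500-76531589, plus strand: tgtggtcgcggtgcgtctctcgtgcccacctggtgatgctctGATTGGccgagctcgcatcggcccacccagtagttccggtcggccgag
The capitals begin 34 bases after the start in Nsdhl and 29, 27 and 63 bases before it in the others. GATTGG or CCAATC occurred in 20.8% of 453 promoters of genes that fell in kidney and rose in lung, against 16.1% of all promoters. Of the 449 genes, 367 had an entry.

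Nsdhl, which takes part in removing methyl carbons from the sterol ring, read 9.68, 9.76 and 9.15 in healthy kidney, 6.27 and 6.36 in fibrotic kidney, 5.58, 5.22 and 6.19 in healthy lung and 7.81, 8.28 and 8.46 in fibrotic lung. Cyp51, which removes another methyl carbon, read 11.11, 10.79 and 11.30 in healthy kidney, 9.28 and 8.25 in fibrotic kidney, 6.74, 6.64 and 6.97 in healthy lung and 9.39, 10.13 and 9.10 in fibrotic lung. Both were lower in every fibrotic kidney and higher in every fibrotic lung without overlap, as their naming among the largest opposite differences required. Nsdhl changed by -3.21 ± 0.30 and 2.52 ± 0.27 (difference -5.73 ± 0.40, adjusted p = 1.8e-05) and Cyp51 by -2.30 ± 0.34 and 2.76 ± 0.31 (difference -5.06 ± 0.46, adjusted p = 5.7e-05). Mvd, which makes the isoprene unit from mevalonate, changed by -1.41 ± 0.30 and 1.50 ± 0.27 (adjusted p 0.00042). Lss, which closes the sterol rings and is named here as the remaining opposite member, changed by -0.77 ± 0.27 and 1.68 ± 0.24 (adjusted p 0.00058) and was opposite in 12 of the 22 alternatives.

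Genes of protein folding in the endoplasmic reticulum moved in both directions. Within the list of ER chaperones and unfolded protein response, 5 of 21 genes had the lower change in kidney and 4 the higher. Over all genes, 16.2% had the lower change and 23.9% the higher, so the list's counts lay near those shares. The kidney-lower count was 10 on the authors' processed intensities. On the kidney-higher side there were 1 on the authors' processed intensities and 8 without fibrotic kidney replicate 1. Calr, a chaperone of glycoproteins, read 9.95, 9.95 and 9.90 in healthy kidney, 7.61 and 7.75 in fibrotic kidney, 7.54, 7.27 and 7.64 in healthy lung and 8.91, 8.92 and 9.66 in fibrotic lung. It fell in kidney by 2.25 ± 0.23 log2 units and rose in lung by 1.68 ± 0.20 (adjusted p of the difference 2.5e-05), with no overlap. Edem1 and Sel1l, which hand misfolded proteins to the degradation machinery, moved the same way (-1.94 ± 0.20 in kidney, 1.03 ± 0.18 in lung, adjusted p = 5.7e-05) and (-0.88 ± 0.19 in kidney, 0.96 ± 0.17 in lung, adjusted p = 0.00043). Hsp90b1, the chaperone of integrins and Toll-like receptors, moved the other way (0.64 ± 0.14 in kidney, -0.76 ± 0.12 in lung, adjusted p = 3e-04), a difference that was 0.28 (adjusted p = 0.2) in the authors' processed intensities.

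In the antioxidant and mitochondrial lists a minority of genes had a called difference, and nearly all of those had the lower change in kidney. Across the list of NRF2 targets and antioxidants, 7 of 20 had the lower change in kidney and 0 the higher. Kidney-lower genes numbered 15 on the authors' processed intensities. Nqo1, a quinone reductase, was opposite (-1.73 ± 0.24 in kidney, 0.88 ± 0.22 in lung, adjusted p = 0.00023), as was Gclc, the catalytic subunit of the first enzyme of glutathione synthesis (-0.66 ± 0.24 in kidney, 0.64 ± 0.21 in lung, adjusted p = 0.0086), whose class held in 8 of the 22 alternatives. For the list of oxidative phosphorylation, 15 of 44 had the lower change in kidney and 1 the higher; 3 were opposite and 8 fell in kidney only. Without fibrotic kidney replicate 1 there were 8 opposite genes, and without fibrotic kidney replicate 2 there were 1 that fell in kidney only and 3 with the higher change in kidney; falls in kidney only also numbered 3 to 5 when 1 of the healthy kidneys, healthy lung replicate 3 or fibrotic lung replicate 2 or 3 was left out. With the kidney change lower there were 41 on the authors' processed intensities. The list's median log2 change was -0.35 in kidney and 0.09 in lung. Atp5pb, a stalk subunit of ATP synthase, read 12.50, 12.37 and 12.22 in healthy kidney, 10.42 and 10.32 in fibrotic kidney, 9.79, 10.03 and 9.86 in healthy lung and 10.90, 10.88 and 11.32 in fibrotic lung. Its changes of -2.00 ± 0.17 and 1.14 ± 0.15 (adjusted p of the difference 2.2e-05) left no overlap in either organ. Ndufs4, a subunit of complex I, was opposite too (-0.63 ± 0.14 in kidney, 0.83 ± 0.12 in lung, adjusted p = 0.00025), and Cycs, cytochrome c, fell in kidney only (-1.38 ± 0.20 in kidney, 0.21 ± 0.18 in lung, adjusted p = 0.0011).

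In the lysosome list, 9 of 27 genes had the lower change in kidney and 5 the higher, beside 16.2% and 23.9% of all genes. The kidney-lower count was 17 on the authors' processed intensities. On the kidney-higher side there were 3 with arrays at a common median and 2 on the authors' processed intensities. The cathepsin Ctsh (-0.72 ± 0.17 in kidney, 1.82 ± 0.15 in lung, adjusted p = 4.8e-05) and the glucuronidase Gusb (-2.06 ± 0.22 in kidney, 0.81 ± 0.20 in lung, adjusted p = 8.6e-05) fell in kidney and rose in lung, while Ctsa, a protective protein of lysosomal enzymes, did the reverse (1.84 ± 0.38 in kidney, -1.84 ± 0.34 in lung, adjusted p = 0.00042). Without fibrotic kidney replicate 2 the kidney change of Ctsh was -0.56 and not called.

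The largest opposite differences with a fall in kidney held 10 named genes, all of which kept their class under 22 alternatives. Ugt1a7c, a conjugating enzyme, read 11.42, 11.42 and 11.16 in healthy kidney, 7.52 and 7.56 in fibrotic kidney, 5.49, 5.09 and 5.57 in healthy lung and 7.39, 7.17 and 8.15 in fibrotic lung, with changes of -3.79 ± 0.27 and 2.19 ± 0.24 (difference -5.98 ± 0.36, adjusted p = 8.7e-06); genes of its cluster share exons, so its probe may read more than 1 of them. Slc39a8, a zinc and manganese importer, read 7.43, 7.21 and 7.83 in healthy kidney, 4.64 and 5.92 in fibrotic kidney, 6.56, 5.90 and 7.24 in healthy lung and 9.75, 10.31 and 10.53 in fibrotic lung, with changes of -2.21 ± 0.44 and 3.63 ± 0.40 (difference -5.84 ± 0.60, adjusted p = 8.5e-05). Both showed lower fibrotic kidneys and higher fibrotic lungs on every array, as the rule for naming them required. The ferric reductase Frrs1 changed by -2.88 ± 0.36 and 2.27 ± 0.32, and Lypla1, which strips palmitate from proteins, by -3.46 ± 0.26 and 1.26 ± 0.23 (adjusted p 6.3e-05 and 2.2e-05). Srp54a, a subunit of the particle that targets secreted proteins to the endoplasmic reticulum and a gene with near-identical copies, had a difference of -4.52 ± 0.39. Kif20b, a motor of cell division, Psmd5, an assembly factor of the proteasome, and Ddx5, an RNA helicase, had differences of -4.37 ± 0.28, -4.19 ± 0.28 and -4.10 ± 0.38.

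Among the 997 rises in kidney only were genes of adhesion, TGF-beta signalling, collagen processing and the interferon response. Vcam1, the adhesion molecule that tethers leukocytes and that injured tubules also make, read 7.56, 7.48 and 7.63 in healthy kidney, 11.68 and 11.45 in fibrotic kidney, 9.87, 10.06 and 10.15 in healthy lung and 9.97, 10.24 and 10.35 in fibrotic lung. It rose by 4.01 ± 0.16 in kidney and changed by 0.16 ± 0.15 in lung (difference 3.85 ± 0.22, adjusted p = 6.9e-06), and its healthy and fibrotic lungs overlapped. In the list of adhesion and matricellular injury genes, 9 of 17 had the higher change in kidney and 0 the lower, and 7 rose in kidney only, beside 7.75% of all genes. Kidney-higher genes numbered 5 on the authors' processed intensities. Itgav, the integrin chain that frees latent TGF-beta, rose in kidney only (1.83 ± 0.20 in kidney, -0.01 ± 0.18 in lung, adjusted p = 6e-04), and Cd44, the hyaluronan receptor, rose in both organs and more in kidney (4.21 ± 0.29 in kidney, 1.69 ± 0.26 in lung, adjusted p = 0.00073); without background correction the difference of Cd44 was 0.80 (adjusted p = 0.059).

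TGF-beta is the cytokine most tied to scarring: it is stored bound to latent binding proteins and acts through receptor kinases. Within the list of TGF-beta signalling, 12 of 19 genes had the higher change in kidney and 0 the lower. Of the 19, 2 were opposite, 6 rose in kidney only and 1 fell in lung only. Over all genes, 23.9% had the higher change in kidney and 4.88% rose in kidney and fell in lung. Kidney-only rises made up 7.75% and lung-only falls 5.56%. Leaving out 1 of the healthy kidneys, whichever it was, or fibrotic kidney replicate 1, left 1 opposite gene, and 2 fell in lung only without healthy kidney replicate 3. With the kidney change higher there were 7 on the authors' processed intensities. Median log2 changes of its genes were 1.64 in kidney and 0.21 in lung. The latent binding protein gene Ltbp3 rose in kidney (2.06 ± 0.21 in kidney, -0.49 ± 0.19 in lung, adjusted p = 0.00013) and Tgfbr3, a co-receptor, fell in lung only (0.22 ± 0.16 in kidney, -1.52 ± 0.14 in lung, adjusted p = 0.00021). Ltbp4 read 8.47, 8.60 and 8.71 in healthy kidney, 9.61 and 9.02 in fibrotic kidney, 12.42, 12.07 and 12.30 in healthy lung and 9.59, 9.41 and 10.13 in fibrotic lung, a kidney change of 0.72 ± 0.24 and a lung change of -2.55 ± 0.22; its opposite class held in 15 of the 22 alternatives. Across the list of collagen processing and crosslinking, 11 of 19 had the higher change in kidney and 2 the lower, with 7 rising in kidney only (3 without fibrotic kidney replicate 2). The kidney-higher count was 3 on the authors' processed intensities. On the kidney-lower side there were 1 without background correction and 7 on the authors' processed intensities. Serpinh1, the collagen chaperone, rose in kidney only (1.77 ± 0.19 in kidney, 0.24 ± 0.17 in lung, adjusted p = 0.0011), with a difference of 0.55 (adjusted p = 0.1) in the authors' processed intensities. Pcolce2, which speeds procollagen trimming, was opposite (1.66 ± 0.16 in kidney, -2.16 ± 0.14 in lung, adjusted p = 6.6e-06).

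Interferon-induced genes, which defend against viruses and prime antigen presentation, rose in kidney in 17 of 23 cases, beside 23.2% of all genes. In lung 1 rose and 4 fell, beside 18.9% and 18.9% of all genes. For the list of interferon response, 19 of 23 genes had the higher change in kidney and 0 the lower. Among the 19, 7 rose in kidney only and 2 were opposite (4 without healthy lung replicate 3). Over all genes, 23.9% had the higher change, 7.75% rose in kidney only and 4.88% rose in kidney and fell in lung. Kidney-higher genes numbered 8 on the authors' processed intensities. Its median log2 change was 1.39 in kidney and -0.10 in lung, and the lung median turned to 0.08 with arrays at a common median and 0.50 on the authors' processed intensities. Irf7, the transcription factor that amplifies interferon, read 4.78, 4.61 and 4.75 in healthy kidney, 7.40 and 7.34 in fibrotic kidney, 6.19, 6.40 and 6.19 in healthy lung and 6.75, 6.11 and 6.66 in fibrotic lung. No healthy kidney showed it above background, and it was at least 4.15-fold higher in the fibrotic ones, against 0.24 ± 0.17 in lung (adjusted p of the difference 0.00011); without fibrotic lung replicate 2 its lung change was 0.44 and called as a rise. Irf1, a related factor that acts on class II genes through Ciita, was opposite (1.39 ± 0.21 in kidney, -1.09 ± 0.19 in lung, adjusted p = 0.00016), as was Ifi27 (1.49 ± 0.16 in kidney, -0.78 ± 0.14 in lung, adjusted p = 6.3e-05).

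Among genes of the list of tubular injury, 15 of 24 genes had the higher change in kidney and 0 the lower. The shares over all genes were 23.9% and 16.2%. With the kidney change higher there were 7 on the authors' processed intensities. The list's median log2 change was 2.49 in kidney and 0.74 in lung. Sox4, a transcription factor of embryonic and injured epithelium, read 6.98, 7.33 and 7.65 in healthy kidney, 10.60 and 11.18 in fibrotic kidney, 9.87, 9.54 and 9.68 in healthy lung and 9.00, 8.81 and 8.82 in fibrotic lung, with 3.57 ± 0.23 in kidney and -0.82 ± 0.20 in lung (adjusted p of the difference 1.8e-05). Krt20 and Sox9, markers of damaged tubules, changed by 5.42 ± 0.57 and 4.42 ± 0.43 in kidney, while their lung changes of -0.04 ± 0.51 and 0.51 ± 0.38 were not called (adjusted p of the difference 0.00043 and 0.00057). Pld4, a lysosomal nuclease of myeloid cells, rose in kidney only (3.30 ± 0.28 in kidney, -0.09 ± 0.25 in lung, adjusted p = 0.00013). So did Lyz1, a lysozyme (3.37 ± 0.20 in kidney, -0.13 ± 0.17 in lung, adjusted p = 2.3e-05), although a more variable probe of Lyz1 changed by -2.46 in lung. Pdpn, a mucin-type protein of fibroblasts, lymphatics and lung type 1 cells, rose in kidney only (3.21 ± 0.26 in kidney, 0.08 ± 0.23 in lung, adjusted p = 0.00013).

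**Figure D4:**
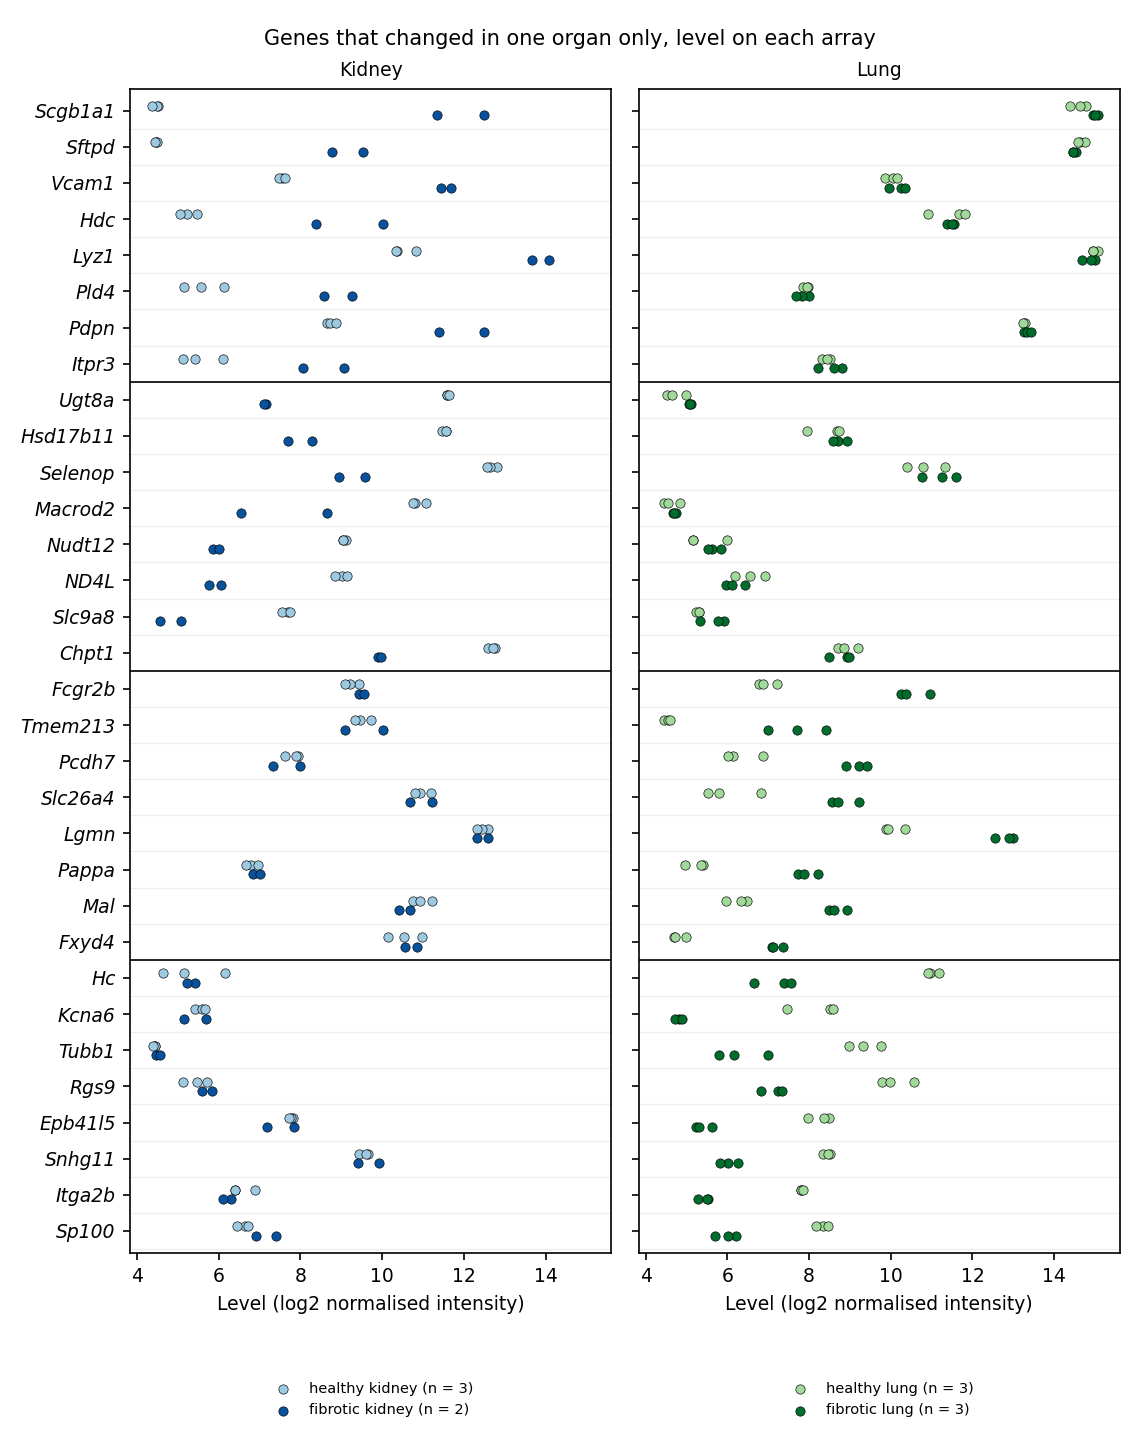
Log2 level (horizontal axis) on each array (points) of the named genes that changed in 1 organ only (vertical axis), kidney at the left and lung at the right, light points healthy and dark points fibrotic. The genes were picked for points that do not overlap in the responding organ and for an interval of the other organ's change within ±1 log2 unit.

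Some transcripts of lung epithelium were higher in fibrotic than in healthy kidney. Scgb1a1, which club cells of the airway secrete, read 4.52, 4.50 and 4.37 in healthy kidney, 12.48 and 11.35 in fibrotic kidney, 14.38, 14.77 and 14.63 in healthy lung and 15.07, 14.95 and 15 in fibrotic lung. It was not above background in any healthy kidney and at least 96.9-fold higher in the fibrotic kidneys, against a lung change of 0.41 ± 0.24 (difference 7.04 ± 0.36, adjusted p = 4.8e-06); its kidney-only class held in 13 of the 22 alternatives. Sftpd, a surfactant protein, was at least 14.1-fold higher in the fibrotic kidneys, against -0.16 ± 0.18 in lung (adjusted p of the difference 6.2e-06). Sftpc, the surfactant protein typical of type 2 cells of the lung, read 4.59, 4.57 and 4.38 in healthy kidney, 9.23 and 7.75 in fibrotic kidney, 14.15, 14 and 14.05 in healthy lung and 13.61, 13.68 and 13.51 in fibrotic lung, with a difference of 4.44 ± 0.44 (adjusted p = 7.2e-05). In the list of surfactant and alveolar type 2 cells, 8 to 11 of 22 genes were above background in a healthy kidney and 15 to 16 in a fibrotic kidney, with a mean level of 6.76 to 6.84 against 7.65 to 7.71. The list of club and secretory airway cells, to which Scgb1a1 belongs, did not move 1 way in kidney. Of 21 genes tested 5 rose and 5 fell there, beside 23.2% and 15.6% of all genes, with a median change of 0.03. Its mean level was 7.57 to 7.70 in the healthy and 7.49 to 8.01 in the fibrotic kidneys. In lung 2 of the list's genes rose and 10 fell, beside 18.9% and 18.9% of all genes. Their part in the kidney rises was not tested.

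The 679 falls in kidney only included genes of tubule transport and of fuel use. Proximal tubule cells reabsorb most of the filtrate and burn fatty acids to do so. Within the list of proximal tubule transport and brush border, 17 of 43 genes had the lower change in kidney and 3 the higher, and 10 fell in kidney only, beside 5.28% of all genes. The kidney-lower count was 26 without fibrotic kidney replicate 1. Those that fell in kidney only numbered 18 without fibrotic kidney replicate 1 and 5 without fibrotic lung replicate 1. Median log2 changes of its genes were -0.96 in kidney and 0.04 in lung. Slc22a6, the transporter that takes up organic anions from blood, read 13.48, 13.38 and 13.26 in healthy kidney, 10.65 and 9.62 in fibrotic kidney, 4.54, 4.51 and 4.83 in healthy lung and 4.37, 4.39 and 4.42 in fibrotic lung. It fell by 3.23 ± 0.25 log2 units in kidney and was not above background in any lung (adjusted p of the difference 0.00015). Slc7a13, an amino acid transporter, was at least 5.88-fold lower in the fibrotic kidneys, where it was not above background. It was not above background in lung either, so it passed the detection filter only through the healthy kidneys.

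Across the list of fatty acid oxidation and peroxisome, 14 of 35 genes had the lower change in kidney and 2 the higher, with 9 falling in kidney only. On the kidney-lower side there were 8 without fibrotic kidney replicate 2. Etfdh, which passes electrons from fatty acid oxidation to the respiratory chain, fell in kidney only (-1.16 ± 0.18 in kidney, 0.36 ± 0.16 in lung, adjusted p = 0.00078). Acsm3, which activates medium-chain fatty acids, read 13.20, 13.08 and 12.99 in healthy kidney, 5.76 and 5.41 in fibrotic kidney, 5.10, 6.51 and 7.28 in healthy lung and 5.69, 5.35 and 5.57 in fibrotic lung, a kidney change of -7.51 ± 0.47 against -0.76 ± 0.42 in lung (adjusted p of the difference 6.3e-05). Against the list's direction, Cyp4a14, a fatty acid hydroxylase, rose in kidney only (4.38 ± 0.31 in kidney, 0.21 ± 0.28 in lung, adjusted p = 7.5e-05), and Acot1, a thioesterase, rose in kidney and fell in lung (0.67 ± 0.17 in kidney, -1.74 ± 0.15 in lung, adjusted p = 6.4e-05). Healthy and fibrotic kidneys also differed in Eif2s3y and Xist, and a part of this in the kidney changes of these genes was not tested. Among other falls in kidney only, Chpt1, which makes phosphatidylcholine, held its class in all 22 alternatives (-2.75 ± 0.19 in kidney, -0.13 ± 0.17 in lung, adjusted p = 7.5e-05). Hsd17b11, a steroid and lipid-droplet dehydrogenase (-3.54 ± 0.25 in kidney, 0.30 ± 0.23 in lung, adjusted p = 5.1e-05), and Nudt12, which hydrolyses NADH (-3.13 ± 0.24 in kidney, 0.23 ± 0.21 in lung, adjusted p = 6.4e-05), fell in kidney as well; the lung change of Nudt12 was 0.50 and called without healthy lung replicate 3, and that of Hsd17b11 was 0.44 with a wider interval without healthy lung replicate 2.

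For the list of androgen-dependent kidney genes, all 17 genes tested fell in kidney, and 12 had the lower change in kidney. Its median log2 change was -4.51 in kidney and -0.12 in lung, and the lung median turned to 0.36 on the authors' processed intensities. Cyp2d12 read 10.38, 10.38 and 9.96 in the healthy kidneys and 5.40 and 4.54 in the fibrotic ones, and Cyp2j13 11.91, 11.92 and 11.64 and 7.57 and 6.49; neither was above background in any lung. Both encode cytochrome P450 enzymes, and their differences were -5.31 ± 0.32 and -4.73 ± 0.35 (adjusted p 8.7e-06 and 2.2e-05). Over the same kidney arrays Eif2s3y went from 9.06 to 9.41 in the healthy kidneys to 4.42 and 4.40 in the fibrotic kidneys, and its organ difference of -3.30 ± 1.68 (adjusted p = 0.14) became -5.04 (adjusted p = 8.3e-06) without fibrotic lung replicate 3. In kidney, obstruction and the sex-linked transcripts cannot be told apart.

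Rises in lung only included phagocyte, matrix and ion transport genes. Fcgr2b, the inhibitory receptor for IgG, read 9.44, 9.22 and 9.10 in healthy kidney, 9.43 and 9.55 in fibrotic kidney, 6.77, 7.22 and 6.88 in healthy lung and 10.25, 10.38 and 10.96 in fibrotic lung. It rose by 3.57 ± 0.20 in lung and changed by 0.24 ± 0.23 in kidney (difference -3.33 ± 0.30, adjusted p = 5.7e-05), and held its class in 22 of the 22 alternatives. Lgmn, a lysosomal protease of macrophages and tubules, read 12.60, 12.44 and 12.31 in healthy kidney, 12.32 and 12.60 in fibrotic kidney, 9.89, 9.94 and 10.36 in healthy lung and 12.99, 12.55 and 12.89 in fibrotic lung, with 2.75 ± 0.18 in lung and 0.01 ± 0.20 in kidney (adjusted p 7.2e-05). Pappa, a protease that frees insulin-like growth factors, rose in lung only (0.13 ± 0.20 in kidney, 2.70 ± 0.17 in lung, adjusted p = 8.5e-05), as did Fxyd4, a regulator of the sodium pump (0.15 ± 0.23 in kidney, 2.40 ± 0.21 in lung, adjusted p = 0.00043). Vcan, a large proteoglycan of provisional matrix, was not above background in any kidney or healthy lung. It was at least 3.84-fold higher in the fibrotic lungs, the only group through which it passed the detection filter. Pgk1, an enzyme of glycolysis, rose in lung only (-0.03 ± 0.14 in kidney, 1.21 ± 0.12 in lung, adjusted p = 0.00065). Of lung-only rises, 485 of 582 were above background on every healthy or every fibrotic kidney array. A further 29 were so on some kidney arrays only, and 68 on none.

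Falls in lung only numbered 715, of which 569 were above background on every healthy or every fibrotic kidney array and 39 on some kidney arrays only. Epb41l5, an adaptor of cell junctions, read 7.82, 7.76 and 7.73 in healthy kidney, 7.83 and 7.19 in fibrotic kidney, 8.48, 8.36 and 7.97 in healthy lung and 5.62, 5.23 and 5.32 in fibrotic lung, with -2.88 ± 0.20 in lung and -0.26 ± 0.22 in kidney (adjusted p 0.00015); without fibrotic kidney replicate 1 its kidney change was -0.58 with a wider interval. Itga2b, the integrin chain of platelets, fell in lung only (-0.36 ± 0.18 in kidney, -2.37 ± 0.16 in lung, adjusted p = 0.00019). Hc, complement component C5, had -3.81 ± 0.35 in lung and 0.01 ± 0.39 in kidney (adjusted p 4e-04), and its class held in 15 of the 22 alternatives. Itga1, a collagen-binding integrin chain, fell in lung only (0.11 ± 0.21 in kidney, -1.67 ± 0.18 in lung, adjusted p = 0.00078) and held its class in 22 of the 22 alternatives.

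For some genes that responded in 1 organ, no array of the other organ showed a level above background. This was so for 32 of the 997 kidney-only rises, 84 of the 679 kidney-only falls and 107 of the 715 lung-only falls. Stra6, a retinol transporter, was at least 5.72-fold higher in the fibrotic kidneys than in the healthy ones. Crct1, a gene of the epidermal differentiation cluster, was at least 16.1-fold higher in the fibrotic lungs. Both passed the detection filter only through the fibrotic group in which they were high, so their rises are a description. Cd109, a co-receptor that dampens TGF-beta, rose by 2.30 ± 0.23 in lung, and Smpd3, a sphingomyelinase, by 2.46 ± 0.25 (adjusted p of the difference 0.0016 and 0.00055). Slc7a10, an amino acid exchanger, read 9.58, 9.43 and 9.61 in healthy lung and 5.07, 5.28 and 5.93 in fibrotic lung, a change of -4.11 ± 0.23. Pla2g1b, a secreted phospholipase, changed by -3.13 ± 0.23, and Gp9 and Gp5, subunits of the platelet receptor for von Willebrand factor, by -2.92 ± 0.18 and -2.82 ± 0.19 (adjusted p of the difference 1e-04, 2.6e-05 and 5.2e-05). Among genes of the list of red cells, whose transcripts come with blood in the tissue, 5 of 9 genes had the higher change in kidney and 2 the lower, and the list's mean level was 9.75 to 10.18 in healthy and 7.08 to 7.28 in fibrotic lung. Alas2, the heme enzyme of red cell precursors, changed by -1.44 ± 0.38 in kidney and -5.50 ± 0.34 in lung (adjusted p of the difference 0.00026); without fibrotic kidney replicate 1 the kidney change was -0.66 and not called. A part of blood content in the lung falls was not tested.

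Most collagen genes rose in kidney, and most rose in lung. In the list of fibrillar and interstitial collagens, 12 of 15 genes rose in kidney and 9 in lung, beside 23.2% and 18.9% of all genes, and 0 fell in either. Of the 15, 6 had the higher change in kidney and 1 the lower. Of these 7, 4 rose in both organs and differed in size; Col16a1 rose in kidney only, and Col14a1 and Col15a1 rose in kidney with a lung change too uncertain to class. Kidney-higher genes numbered 3 on the authors' processed intensities, 3 without fibrotic lung replicate 1 and 3 without fibrotic lung replicate 2. With the kidney change lower there were 2 without background correction, 4 on the authors' processed intensities and 2 without fibrotic lung replicate 2. Col8a1, a short-chain collagen of vessel walls, read 6.06, 5.41 and 5.63 in healthy kidney, 9.73 and 9.73 in fibrotic kidney, 7.11, 7.32 and 6.42 in healthy lung and 8.29, 7.82 and 8.00 in fibrotic lung, rises of 4.03 ± 0.28 and 1.08 ± 0.25 (adjusted p of the difference 0.00026). Col5a2, a chain that starts collagen fibrils, was the 1 with the larger rise in lung (1.32 ± 0.22 in kidney, 3.11 ± 0.20 in lung, adjusted p = 0.0011). Col1a1, the main chain of scar collagen, rose by 4.20 ± 0.48 and 3.06 ± 0.43, a difference of 1.14 ± 0.64 that was not called (adjusted p = 0.18) but was 1.66 (adjusted p = 0.028) without healthy kidney replicate 3 and 0.72 (adjusted p = 0.36) without fibrotic lung replicate 2. The difference of Col3a1, 1.27 ± 0.37 (adjusted p = 0.02), was 0.92 without fibrotic kidney replicate 2, 1.06 without fibrotic lung replicate 1, 1.13 without fibrotic lung replicate 2, 0.08 without background correction and 0.32 on the authors' processed intensities, none of them called.

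Elastin rose in both organs and more in lung. Its gene Eln, which gives the alveolar wall its recoil, read 5.14, 4.45 and 5.26 in healthy kidney, 7.19 and 6.59 in fibrotic kidney, 8.80, 8.74 and 8.48 in healthy lung and 13.34, 12.59 and 13.23 in fibrotic lung, rises of 1.94 ± 0.30 and 4.38 ± 0.27 (difference -2.45 ± 0.40, adjusted p = 0.0011). Its healthy and fibrotic arrays did not overlap in either organ. Mmp10, a matrix protease, rose more in lung (1.24 ± 0.33 in kidney, 4.07 ± 0.29 in lung, adjusted p = 8e-04), and Mmp2, a gelatinase of fibroblasts, more in kidney (3.15 ± 0.22 in kidney, 1.21 ± 0.19 in lung, adjusted p = 0.00066). Within the list of basement membrane, 9 of 17 had the higher change in kidney and 3 the lower. The kidney-higher count was 3 on the authors' processed intensities. Col4a1, a chain of the type IV collagen found in all basement membranes, rose more in kidney (2.93 ± 0.17 in kidney, 1.32 ± 0.16 in lung, adjusted p = 0.00052), whereas Col4a4, a chain of the specialised network of glomerulus and alveolus, fell in kidney and rose in lung (-1.02 ± 0.16 in kidney, 0.68 ± 0.14 in lung, adjusted p = 0.00022). Across the list of fibroblast markers, 8 of 14 had the higher change in kidney and 1 the lower. On the kidney-higher side there were 5 on the authors' processed intensities. In that of contractile and smooth muscle the counts were 8 of 20 and 0, and on the authors' processed intensities 4 and 2. Npnt, a matrix ligand of integrins, was opposite (1.66 ± 0.33 in kidney, -1.51 ± 0.30 in lung, adjusted p = 0.00044). Flna and Vcl, which link actin to the membrane, rose in kidney only (2.92 ± 0.25 in kidney, 0.24 ± 0.22 in lung, adjusted p = 0.00025) and (1.41 ± 0.15 in kidney, -0.18 ± 0.14 in lung, adjusted p = 3e-04). Acta2, the actin of myofibroblasts, had a difference of 1.65 ± 0.52 (adjusted p = 0.028), which was called in 5 of the 11 fits that left out 1 array (1.33 to 2.01) and in 13 of all 22 alternatives, the lowest value being 0.74 (adjusted p = 0.28) on the authors' processed intensities.

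Among inflammatory genes that rose in both organs, sizes differed in both directions. Ccl9, a chemokine of macrophages, read 5.05, 5.72 and 5.50 in healthy kidney, 10.79 and 11.36 in fibrotic kidney, 8.51, 9.54 and 9.37 in healthy lung and 11.82, 11.50 and 12.05 in fibrotic lung, rises of 5.65 ± 0.33 and 2.65 ± 0.29 (adjusted p of the difference 0.00057). Socs3, the feedback inhibitor of IL-6 signalling, rose more in kidney (5.34 ± 0.39 in kidney, 2.38 ± 0.35 in lung, adjusted p = 0.0015), as did the oncostatin M receptor Osmr (3.40 ± 0.30 in kidney, 1.30 ± 0.27 in lung, adjusted p = 0.0024). Ccl2, the main attractant of monocytes, was not above background in any healthy organ, so it passed the detection filter only through fibrotic arrays. Its fitted changes against background were 2.64 ± 0.20 in kidney and 4.27 ± 0.18 in lung (adjusted p of the difference 0.001). The larger rise in lung is thus a description. Wfdc17, a secreted protein of macrophages, also rose more in lung (2.86 ± 0.37 in kidney, 5.91 ± 0.33 in lung, adjusted p = 0.00098). For the list of macrophages and monocytes, 23 of 26 rose in kidney and 18 in lung, beside 23.2% and 18.9% of all genes. Of the 26, 12 had the higher change in kidney and 3 the lower. Kidney-higher genes numbered 5 on the authors' processed intensities. Lcn2, an iron-trapping protein of injured epithelium and neutrophils, had a difference of 3.63 ± 1.12 (adjusted p = 0.026), which was called in 6 of the 11 fits that left out 1 array and in 14 of all 22 alternatives. It was lowest, at 1.86 (adjusted p = 0.07), without fibrotic kidney replicate 2. Timp1, the inhibitor of matrix proteases, rose by 7.02 ± 0.92 in kidney and 5.82 ± 0.82 in lung, a difference not called (adjusted p = 0.47) that was 3.31 (adjusted p = 0.0019) without fibrotic kidney replicate 1 and turned to -0.91 (adjusted p = 0.23) without fibrotic kidney replicate 2. Havcr1, the tubule injury marker also known as KIM-1, had a difference of 1.92 ± 0.91 (adjusted p = 0.12), and 3.36 (adjusted p = 0.0016) without fibrotic kidney replicate 1 and 0.47 (adjusted p = 0.53) without fibrotic kidney replicate 2.

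Some lists did not lie to 1 side. Among genes of the list of cell cycle, 22 of 36 genes rose in kidney and 25 in lung, beside 23.2% and 18.9% of all genes. Of the 36, 5 had the higher change in kidney and 5 the lower, beside 23.9% and 16.2% of all genes. With 1 array left out these counts ran from 1 to 12 and from 4 to 7. In the list of cytosolic ribosomal proteins, 11 of 26 had the higher change in kidney and 5 the lower, and 9 rose in kidney only (5 to 8 with 1 array left out, 2 with arrays at a common median and 0 on the authors' processed intensities). With the kidney change higher there were 3 with arrays at a common median, 1 on the authors' processed intensities and 7 without healthy lung replicate 1. The kidney-lower count was 3 with quantiles matched within each organ, 17 on the authors' processed intensities, 3 with weights per group, 2 without healthy kidney replicate 1, 2 without healthy kidney replicate 2, 2 without healthy kidney replicate 3, 2 without fibrotic kidney replicate 1, 2 without healthy lung replicate 1, 3 without healthy lung replicate 2, 3 without healthy lung replicate 3, 2 without fibrotic lung replicate 2 and 2 without fibrotic lung replicate 3. Within the list of cardiac and skeletal muscle, 0 of 23 genes were called in either direction in limma's test and 1 had an unadjusted p under 0.05, beside the uneven healthy lungs given above. Without healthy lung replicate 3, whose mean level of the list was 5.74, 16 of them had the higher change in kidney, and without healthy lung replicate 2 there was 1. Umod, the urinary protein of the thick ascending limb, had -1.96 ± 1.34 (adjusted p = 0.27) and read 9.19 in fibrotic lung 1 against 5.74 and 4.46 in fibrotic lungs 2 and 3; without fibrotic lung replicate 1 the difference was -0.57 (adjusted p = 0.32).

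**Figure D5:**
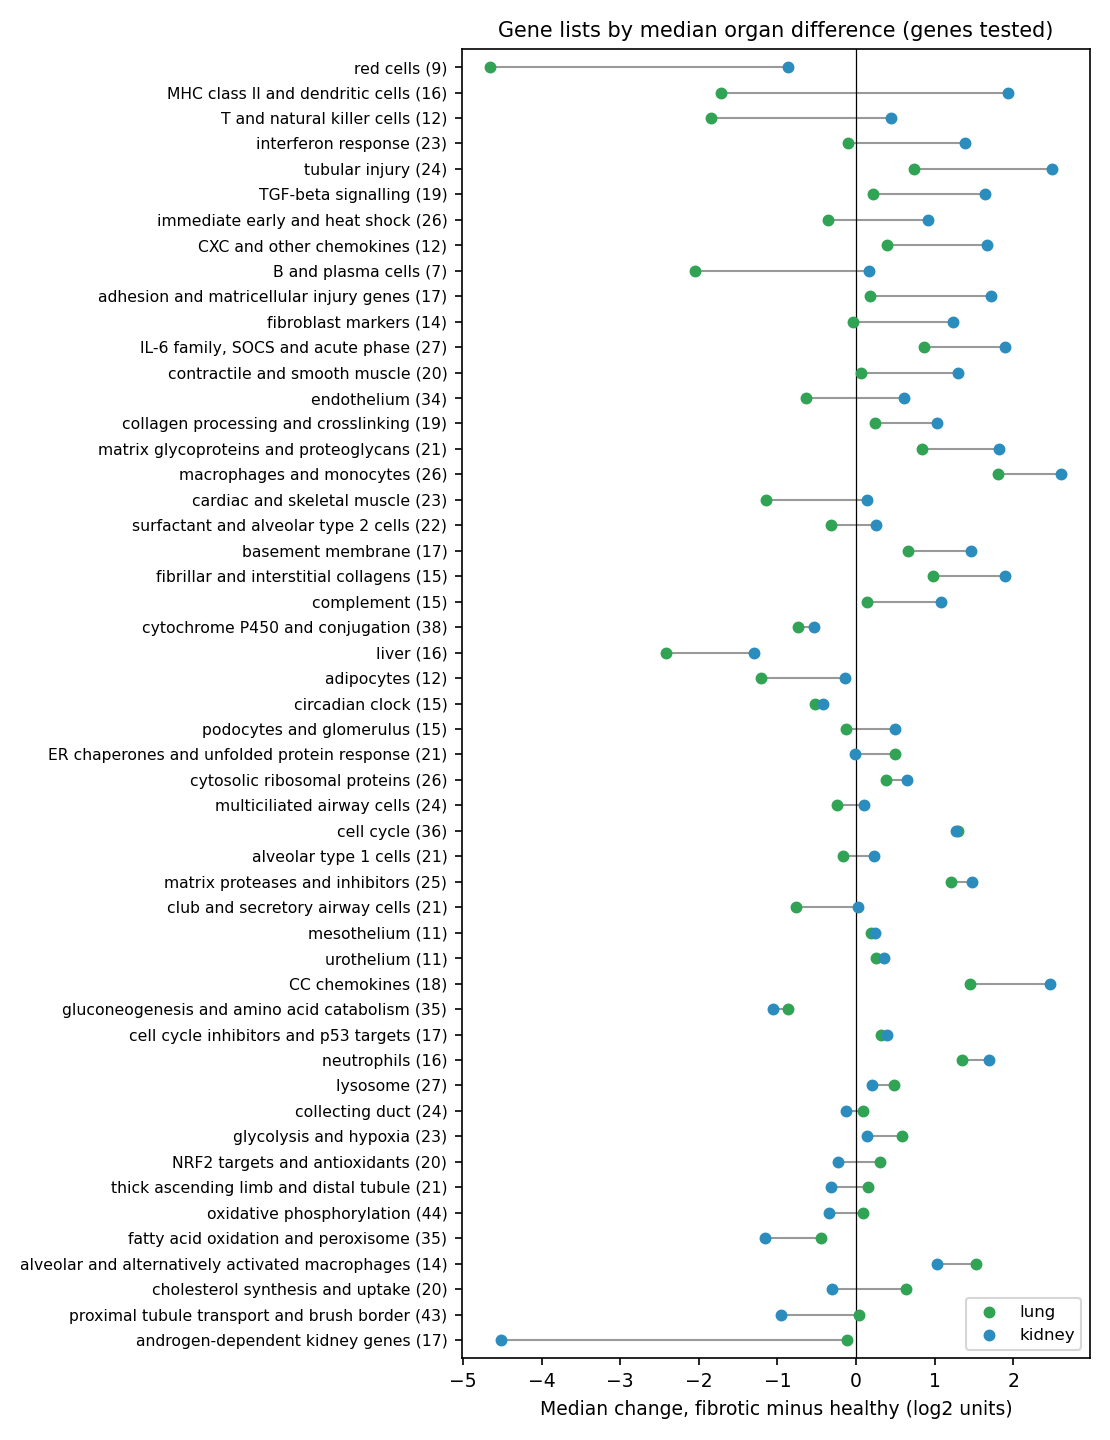
Median log2 change (horizontal axis) in kidney and in lung of each gene list (vertical axis, with the number of genes tested), ordered by the list's median organ difference. The MHC class II list, at 1.93 in kidney and -1.72 in lung, spans 0 near the top, and the list of androgen-dependent kidney genes, at -4.51 and -0.12, stands at the bottom.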

How the data were processed

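RNA prepared with Trizol was labelled through the Ambion MessageAmp kit (labels' protocols), and the submitters' processing notes name GenomeStudio 5.0. Raw bead intensity and the authors' detection p-value were deposited for 45281 probes on each of 11 arrays. The authors' deposited processed intensities were, to within rounding, a linear function of the raw ones: background-subtracted, with 1 scale factor for each array, no centring of genes and medians from 10.6 to 28.8. No slide or scan batch could be tested.

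Of the probes, 34885 had 1 symbol, 18 several and 10378 none; 34807 matched RefSeq and 0 symbols changed. Symbols can be out of date. Starting from the deposited raw intensity, log2 values were made with neqc (offset 16) in limma 3.58.1 under R 4.3.3, and 12865 genes, each as its brightest probe, entered lmFit and eBayes (1 coefficient per group, 7 residual and 3.22 prior degrees of freedom), with Benjamini-Hochberg adjustment within a contrast. Mice were separate animals by the study's design text. The titles name 3 mice for both healthy organs, although the descriptions number every array's mouse apart; deviations of same-mouse organs correlated at 0.01, -0.07 and -0.11, so no mouse term was used.

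A bound ("at least N-fold") compares the bright group's mean with the dim group's mean after each of its arrays is raised, where lower, to that array's dimmest detected signal. The 51 lists (1230 genes, 1124 on the array), the definitions and the genes to name were chosen with earlier results of these data known. Named were the 10 largest opposite differences per direction without overlap, the 8 largest changes per organ and direction in 1 organ only (5 where the other organ was at background), 4 per class of unequal size, the 4 members of a list with the smallest p and a few markers whatever their values; clone names were passed over. Lss was added after its values were seen. Spp1 was not analysed here.

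The fit was tested on simulated data with 25 changed genes per class and size among 12865: the difference was called in 23 and 20 opposite genes at 1 log2 unit and in 24 and 24 at 2, in 6 and 7 single-organ genes at 1 and in 21 and 19 at 2, and in 5 of 12665 unchanged genes. The class itself was recovered in 13 and 9 opposite genes at 1 log2 unit and in 22 and 21 at 2. For single-organ genes it was recovered in 6 and 7 at 1 and in 20 and 17 at 2. In the data 40% of genes were called, a far larger share than was changed in the simulation. The number of arrays limits the precision, most of all with 2 fibrotic kidneys.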

Additional observations from a re-analysis of the deposited data

Results flagged for a closer look

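All these results were picked out because the kidney and lung changes differed by the test of the difference itself. The organ difference was called for 5150 genes, of which 628 rose in kidney and fell in lung and 449 did the reverse. Among genes that rose in kidney and fell in lung, the log2 difference was 7.38 for Fcrls, 7.02 for Ccl5, 6.32 for Thy1, 5.21 for H2-DMb1, 5.08 for H2-Eb1, 4.96 for Piezo2, 4.78 for Chil1, 4.75 for H2-Ab1, 4.64 for Hpcal4 and 4.51 for Hr.

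Among genes that fell in kidney and rose in lung it was -5.98 for Ugt1a7c, -5.84 for Slc39a8, -5.73 for Nsdhl, -5.15 for Frrs1, -5.06 for Cyp51, -4.72 for Lypla1, -4.52 for Srp54a, -4.37 for Kif20b, -4.19 for Psmd5 and -4.10 for Ddx5. All 20 differences were called under each of 22 alternatives. Without background correction 5 of the first 10 and 7 of the second 10 shrank by more than 1.5 times.

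Of the markers given whatever their values, the difference was 7.04 for Scgb1a1, 4.44 for Sftpc, 4.16 for Xist, 3.63 for Lcn2, 1.65 for Acta2 and 1.27 for Col3a1. The Xist difference was called in 11 of the 22 alternatives (4 of the 11 that left out 1 array) and fell to 0.66 (adjusted p = 0.62) in the authors' processed intensities. Those of Lcn2, Acta2 and Col3a1 were called in 14, 13 and 17 of the 22. Xist was above background in both fibrotic kidneys and in fibrotic lungs 1 and 3, and in no healthy organ, although all mice are labelled female.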

How the results depend on the processing

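The results most open to the scaling of the arrays are the counts of opposite and single-organ responses. In the authors' processed intensities, where the median difference over all genes moved from 0.13 to -0.88, the kidney change was called above the lung change in 881 genes and below in 5728. Opposite responses numbered 1886 there, 99 with a rise in kidney and 1787 with a fall, and there were 310 rises in kidney only, 1563 rises in lung only and 115 falls in lung only. With a common median, 405 genes rose in kidney and fell in lung, 362 fell in kidney only, 947 rose in lung only and 331 fell in lung only. Over the 4 scaling and background alternatives together, 98 of 628 and 260 of 449 opposite genes kept their class, and in all 11 fits that left out 1 array 264 and 221 did. The calls in these fits ranged from 4436 to 5256. Counted over probes, 8480 differences were called, 4170 of them lower in kidney, with 1902 opposite responses (1046 with a fall in kidney), 4808 responses in 1 organ only, 1356 falls in kidney only and 1017 rises in lung only. With the most variable probe of each gene 750 genes fell in kidney and rose in lung. A margin of 0.58 left 1202 responses in 1 organ only, 458 and 301 in kidney and 206 and 237 in lung. With both changes at least 1 log2 unit, 256 opposite responses remained by construction, 140 and 116 by direction. Of all 5150 genes called here, 57% were also called in the authors' processed intensities and 89.2% kept the sign of their difference. Among the genes picked for naming, 5 called differences changed sign there without being called: Slc7a12 to -0.39, Oat to -0.27, Rps14 to -0.29, Rpl28 to -0.34 and Krt5 to -0.99. The cause was not tested. With the mouse named in the title as a replicate block, 5126 differences were called, and 626 of 628 and 448 of 449 opposite genes kept their class, so the pairing changed none of the counts by more than 1.5 times.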
